A study of Homo sapiens with 3 samples.

Results

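The genes described here encode the machinery that licenses replication origins, unwinds DNA and copies it. They were a set of 49 genes, picked by name with earlier results of these data known. Of these, 48 were found among the 48162 gene IDs of each file through GENCODE 29 names. UHRF1 had no match and is not analysed here. All 48 exceeded a mean of 1 FPKM (fragments counted per kilobase of a transcript, corrected for library depth) over the 3 libraries, the filter that left 12649 named genes for analysis. All libraries came from the established breast cancer line MDA-MB-231, of the triple-negative subtype. In 1 library, labelled sG_sF_3, cells were depleted of both Geminin and FoxO3. In another, labelled sF_3, FoxO3 alone was depleted, and the last, labelled Co, was the control. Each group was 1 library, so differences between groups could not be set against replicates and carry no p-value. All cells, the control included, were exposed to lentivirus for 24 h, then given new medium and collected 72 h later, in DMEM with 10% serum. The sources used here give neither the depleting sequences nor the control virus, nor do they explain the 3 that ends both depletion labels.

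In the G1 phase the origin recognition complex, with CDC6 and CDT1, loads the MCM2 to MCM7 hexamer onto origins, which is called licensing. The kinase CDC7 with its activator DBF4, and factors such as TOPBP1, RECQL4 and MCM10, then convert the hexamer into the active CMG helicase by adding CDC45 and the GINS complex. Polymerase alpha with primase starts each strand, polymerases delta and epsilon extend it on the PCNA clamp, and ribonucleotide reductase and thymidylate synthase supply precursors. Geminin binds CDT1 and blocks a repeat of licensing after S phase has begun, and FoxO3 is a forkhead transcription factor that restrains proliferation in many cell types. Many replication genes are transcribed at the G1/S transition under control of E2F factors.

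The depleted genes were low where the labels place them. FOXO3 stood at 2.94 FPKM after co-depletion and 2.79 after FoxO3 depletion, against 12.2 in the control. GMNN, the Geminin gene, stood at 37.0 FPKM after co-depletion, 112.2 after FoxO3 depletion and 112.3 in the control. Library depth, inferred from the FPKM values, was 12267332 reads in the co-depletion, 10760613 in the FoxO3 depletion and 14507410 in the control. VIM, CD44, AXL and CAV1, which mark this mesenchymal-like line, lay between 432.1 and 935.2 FPKM in each library, while SPARC lay at 1.09 or less. Of the genes usually low in the line, ESR1, PGR and CDH1 lay at 1.02 FPKM or less, while EPCAM lay between 8.95 and 13.7 and ERBB2 between 38.0 and 46.8 FPKM. Markers of leukocytes, fibroblasts, endothelium and HEK293 cells summed to at most 0.394 FPKM for each list in each library.

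Across the 48 genes the differences were small and mostly downward. Against the control, 6 genes were lower by at least 1.5-fold on the FPKM + 1 scale after FoxO3 depletion (12.5%), where 16.7% of all analysed genes passed the same size. After co-depletion 7 were lower (14.6%), against 12.3% of all genes. None was higher by that size in either comparison, against 4.0% of all genes after FoxO3 depletion and 4.02% after co-depletion. The shares of genes called lower were thus near the background. At 2-fold, 2 genes were lower after co-depletion, against 2.25% of all genes, and 1 after FoxO3 depletion, against 5.23%. The median log2 ratio of the 48 genes was -0.28 for the co-depletion over the control, against -0.06 for all analysed genes. For the FoxO3 depletion over the control it was -0.13, against -0.07 for all genes. Below 0 lay 40 of the 48 genes (83.3%) after co-depletion, against 56.3% of all genes, and 33 (68.8%) after FoxO3 depletion, against 57.1% of all genes. The summed level of the 48 genes was 3205 FPKM in the co-depletion, 3449.9 in the FoxO3 depletion and 3617 in the control. Both comparisons share the control library, so anything particular to it enters both. In bulk RNA, fewer cells in S phase and less of a transcript per cell cannot be told apart. The genes nearest the 1.5-fold line after co-depletion were RFC1, DBF4 and GINS4 just past it and PRIM2, TOPBP1 and PCNA just short of it, and after FoxO3 depletion ORC4, TOPBP1 and RFC1 past it and LIG1, GINS4 and DBF4 short of it.

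**Figure D1:**
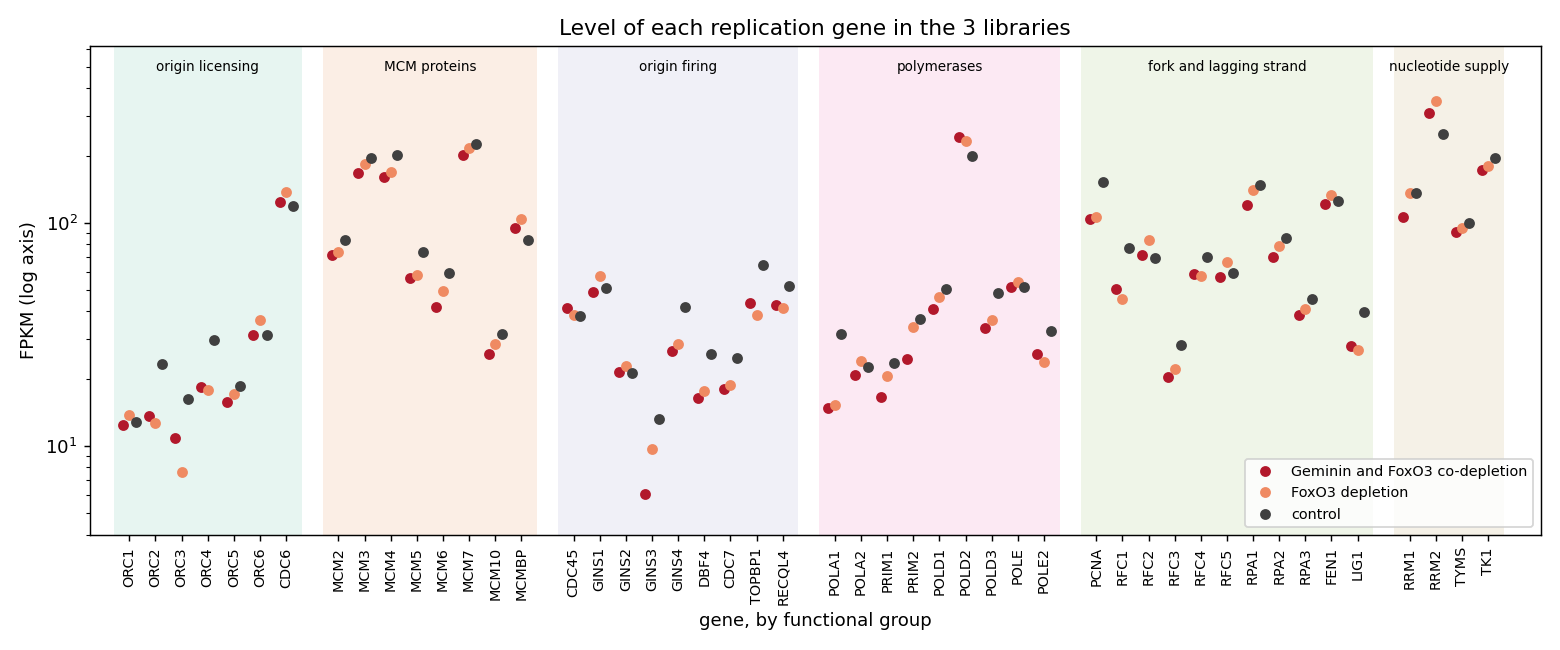
FPKM (log axis) of each of the 48 replication genes, by functional group, with 1 point per library. Most control points lie above the depleted ones, as for POLA1 at 14.8 FPKM in the co-depletion, 15.2 in the FoxO3 depletion and 31.7 in the control, while RRM2 is lowest in the control, at 311.4, 350.1 and 250.1 FPKM in the same order.

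Base composition moved with these ratios. Transcripts poor in GC were lower in both depleted libraries across the whole transcriptome, and 12 of the 48 genes are in the GC-poorest group. With all genes split into 5 equal groups by GC content, those in the lowest group (26.9% to 42.0% GC) had a median log2 ratio of -0.57 for the FoxO3 depletion over the control, and 48.3% of them were lower by 1.5-fold. The 12 replication genes in that group had a median of -0.48, and 5 of the 6 genes called lower after FoxO3 depletion were among them. In the highest group (58.2% to 74.2% GC) all genes had a median of 0.05 and the 5 replication genes -0.12. For the co-depletion over the control, the replication genes lay under genes of like GC content in each of the 5 groups, with medians of -0.54 against -0.44 in the lowest, -0.25 against -0.16, -0.20 against 0.01, -0.14 against 0.06, and -0.27 against 0.10 in the highest. Across the 48 genes, which share libraries and are not independent, Spearman's rho between log2 ratio and GC content was 0.48 after co-depletion and 0.40 after FoxO3 depletion. With mean FPKM in place of GC content, rho was 0.47 in both comparisons. Over all analysed genes it was 0.23 after co-depletion and 0.27 after FoxO3 depletion. The 48 genes had a median level of 47.5 FPKM, against 18.4 for all analysed genes, so the background is not matched for level. The part of base composition or of level in the single results was not tested. Subtracting the GC trend moved the log2 ratio of 13 of the 48 genes by more than 0.2 for the co-depletion and of 15 for the FoxO3 depletion, and the adjusted values of these genes are given with them. It changed the sign of 7 ratios for the co-depletion and of 8 for the FoxO3 depletion. The median of the 48 genes became -0.18 instead of -0.28 after co-depletion, against -0.002 for all genes. After FoxO3 depletion it became -0.05 instead of -0.13, against 0.0004 for all genes. After the subtraction 4 of the 48 genes were lower by 1.5-fold after co-depletion, namely POLA1, GINS3, GINS4 and LIG1, against 5.68% of all genes. POLA1, GINS4 and LIG1 were lower after FoxO3 depletion, 3 in all, against 8.42% of all genes. None of the 48 was higher, against 4.47% of all genes after co-depletion and 5.8% after FoxO3 depletion. Over all genes the balance of calls moved too, with 719 lower and 566 higher after co-depletion in place of 1550 and 509, and 1065 lower and 734 higher after FoxO3 depletion in place of 2112 and 506.

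**Figure D2:**
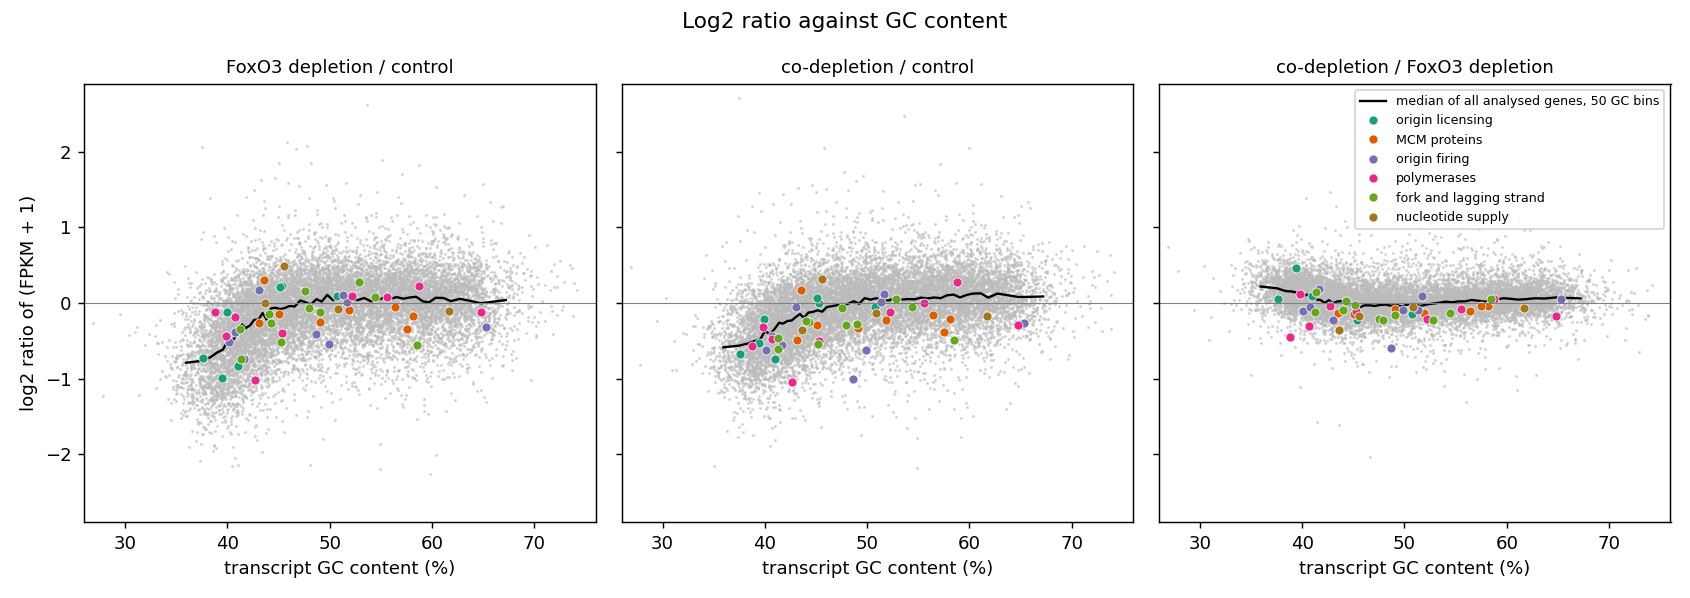
Log2 ratio of (FPKM + 1) against transcript GC content (%) for all 12649 analysed genes (grey), the median of 50 GC bins (line) and the 48 replication genes (coloured by functional group), in each of the 3 comparisons. The line falls away at low GC in both comparisons with the control, and POLA1 lies under it in both, at -1.05 for the co-depletion and -1.01 for the FoxO3 depletion.

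**Figure D3:**
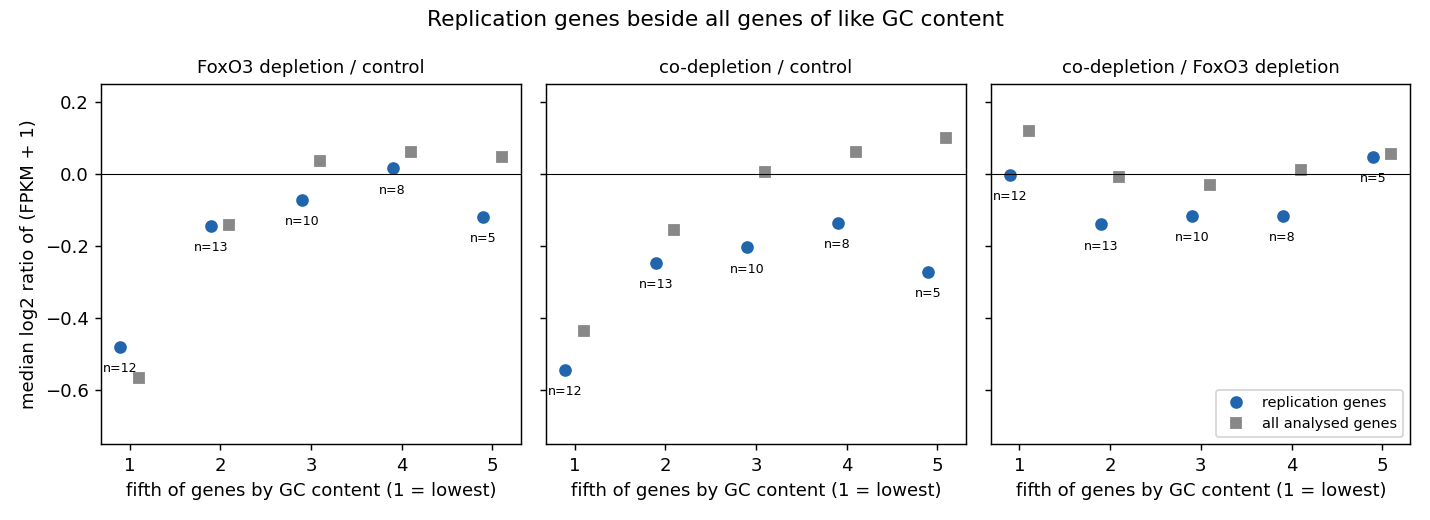
Median log2 ratio of (FPKM + 1) of the replication genes (circles, with the number of genes) and of all analysed genes (squares) in 5 equal groups by GC content. For the co-depletion over the control the circles lie under the squares in each group, from -0.54 against -0.44 in the lowest to -0.27 against 0.10 in the highest.

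Promoters were examined because the genes are known to be transcribed together. Of the 49 genes, 42 had an entry in the RefSeq promoter table (GRCh38.p14), and MCM4, MCM5, GINS4, RECQL4, POLD3, RPA2 and RPA3 did not. The E2F letters TTTCCCGC, TTTCGCGC, TTTGCCGC or TTTGGCGC, on either strand, occurred in the 250 bases before the start of 13 of the 42 (31.0%), against 2.79% of 27305 promoters in the table and 4.57% of 9460 promoters of analysed genes. Matches can overlap each other. The CCAAT box, written CCAAT on either strand, occurred in 23 of the 42 (54.8%), against 33.0% of all promoters and 35.3% of those of analysed genes. The FOXO letters GTAAACA, on either strand, occurred in none of the 42, against 2.98% of all promoters and 1.88% of those of analysed genes. The letters TTTGAA, the CHR element known from genes of late cell cycle phases, were counted together with TTTCAA, on either strand. One or the other occurred in 3 of the 42 (7.14%), against 19.7% of all promoters and 12.4% of those of analysed genes. The count does not separate TTTGAA from TTTCAA, and other forms of the CHR, such as TTCGAA, were not searched, so it is not a count of CHR elements. Genes with E2F letters had a median log2 ratio of -0.34 (12 measured genes) for the co-depletion over the control, and genes without them -0.25 (29 genes). For the FoxO3 depletion over the control the medians were -0.18 with and -0.12 without. For the co-depletion over the FoxO3 depletion the order was the other way, at -0.08 with and -0.14 without.

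By log2 ratio of (FPKM + 1) after co-depletion, GINS3 and RRM2 were the lowest and the highest gene of the set apart from POLA1. The windows below, each of 100 bases upstream of the start, show both without E2F letters. They also show 3 MCM genes, POLA1, PCNA and LIG1 with their E2F letters in capitals. They were taken at chr6:52284837-52284936 (minus strand) for MCM3, chr2:135876444-135876543 (minus) for MCM6, chr7:100101398-100101497 (minus) for MCM7, chrX:24693761-24693860 (plus) for POLA1, chr20:5126623-5126722 (minus) for PCNA, chr19:48170379-48170478 (minus) for LIG1, chr16:58392371-58392470 (plus) for GINS3 and chr2:10122639-10122738 (plus) for RRM2.
MCM3: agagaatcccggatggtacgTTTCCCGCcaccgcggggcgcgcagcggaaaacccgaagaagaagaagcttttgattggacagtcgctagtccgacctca
MCM6: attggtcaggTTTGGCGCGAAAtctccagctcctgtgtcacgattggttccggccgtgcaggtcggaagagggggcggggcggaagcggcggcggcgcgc
MCM7: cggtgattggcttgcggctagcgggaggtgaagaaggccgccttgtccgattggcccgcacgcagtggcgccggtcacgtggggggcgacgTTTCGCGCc
POLA1: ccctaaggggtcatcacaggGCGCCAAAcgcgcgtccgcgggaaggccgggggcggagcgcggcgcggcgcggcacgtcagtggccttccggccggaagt
PCNA: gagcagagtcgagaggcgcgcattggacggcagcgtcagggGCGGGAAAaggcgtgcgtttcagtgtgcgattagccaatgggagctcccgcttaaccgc
LIG1: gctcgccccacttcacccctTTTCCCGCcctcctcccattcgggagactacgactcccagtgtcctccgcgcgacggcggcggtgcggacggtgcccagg
GINS3: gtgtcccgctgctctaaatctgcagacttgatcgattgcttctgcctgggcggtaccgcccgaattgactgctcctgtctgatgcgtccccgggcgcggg
RRM2: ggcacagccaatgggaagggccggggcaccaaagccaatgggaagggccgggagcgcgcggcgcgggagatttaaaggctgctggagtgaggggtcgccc
In MCM6 the capitals hold 2 overlapping matches, and 2 further matches lie outside the window. The MCM7 window holds 1 of its 2 matches. POLA1, PCNA and LIG1 carried E2F letters and stood low in both depleted libraries, and GINS3 stood low without them. The genes shown were picked and do not stand for all genes with E2F letters. GINS2 and POLE also carried them, with log2 ratios of 0.02 and 0.002 after co-depletion and 0.11 and 0.08 after FoxO3 depletion.

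The origin recognition complex divided into subunits that were low and subunits that were level. ORC2 (ENSG00000115942), a core subunit, had 13.6 FPKM in the co-depletion and 12.7 in the FoxO3 depletion, against 23.3 in the control. Its level was 58.2% of control after co-depletion (49.5% to 68.4%, the 95% interval for counting error alone) and 54.5% (45.7% to 64.7%) after FoxO3 depletion. ORC3 (ENSG00000135336), which pairs with ORC2, had 10.9 FPKM in the co-depletion, 7.62 in the FoxO3 depletion and 16.1 in the control. Both depleted libraries were thus below the control for this pair of genes, and ORC3 was lowest after FoxO3 depletion. ORC4, an ATPase subunit, had 18.4 FPKM in the co-depletion, 17.7 in the FoxO3 depletion and 29.8 in the control. All 3 transcripts are poor in GC, at 41.0%, 39.4% and 37.6%. After subtraction of the GC trend the log2 ratio for the FoxO3 depletion over the control was -0.43 instead of -0.83 for ORC2, -0.37 instead of -0.99 for ORC3 and 0.04 instead of -0.72 for ORC4, so ORC4 lay where genes of its base composition lie. For the co-depletion over the control it was -0.40 instead of -0.74 for ORC2, -0.05 instead of -0.53 for ORC3 and -0.11 instead of -0.67 for ORC4. ORC4 also shares 430 exon bases with ACVR2A on the opposite strand, and the strand setting of the counting is unknown.

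The other licensing genes lay between 85.2% and 117% of control. ORC1, the subunit whose protein is degraded after origins fire, had 12.4 FPKM in the co-depletion, 13.8 in the FoxO3 depletion and 12.8 in the control. ORC5 had 15.8, 17.0 and 18.5 FPKM in the same libraries, and with the GC trend subtracted its log2 ratio was 0.17 instead of -0.22 after co-depletion and 0.41 instead of -0.12 after FoxO3 depletion. ORC6 had 31.3 FPKM in the co-depletion, 36.7 in the FoxO3 depletion and 31.4 in the control. CDC6 (ENSG00000094804), the ATPase that works with the complex to load MCM, had 124.4 FPKM in the co-depletion, 137.2 in the FoxO3 depletion and 118.6 in the control. CDC6 was thus highest in the FoxO3 depletion, at 116% of control (108% to 124%), and at 105% (98.01% to 112%) in the co-depletion, where the interval includes 100%. The 7 licensing genes had a median log2 ratio of -0.22 for the co-depletion over the control, or -0.05 after subtraction of the GC trend, and -0.12 or 0.04 for the FoxO3 depletion.

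The MCM2 to MCM7 genes, the 6 subunits of the helicase hexamer, were all lower in both depleted libraries than in the control and lowest in the co-depletion, by modest amounts; with libraries rescaled by the median ratio, MCM7 alone lay above the control after FoxO3 depletion, at a log2 ratio of 0.03. MCM6 (ENSG00000076003) had 41.9 FPKM in the co-depletion, 49.4 in the FoxO3 depletion and 59.3 in the control. That is 70.6% of control (64.8% to 76.9%) after co-depletion and 83.3% (76.5% to 90.6%) after FoxO3 depletion. MCM5 had 56.6 FPKM in the co-depletion, 58.1 in the FoxO3 depletion and 74.1 in the control, or 76.5% of control (70.7% to 82.6%) after co-depletion. MCM4 had 159.8, 169.2 and 201.3 FPKM in the same order. MCM2 had 71.8 FPKM in the co-depletion, 73.6 in the FoxO3 depletion and 83.5 in the control. MCM3 had 167.1, 182.6 and 195.8 FPKM in the same order. MCM7 had 201.9 FPKM in the co-depletion, 217.3 in the FoxO3 depletion and 225.6 in the control, at 89.5% of control (85.8% to 93.4%) after co-depletion, the smallest difference of the 6. The counting intervals of the 6 co-depletion ratios all ended under 100%, and none of the 6 reached 1.5-fold. Subtraction of the GC trend left their log2 ratios for the co-depletion over the control between -0.23 and -0.46, and for the FoxO3 depletion that of MCM6 was -0.06 instead of -0.26. MCM7 shares 392 exon bases with AP4M1 on the opposite strand.

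Of the MCM-related factors, MCM10, which binds the helicase as it is activated, was low like the hexamer, at 25.9 FPKM in the co-depletion, 28.7 in the FoxO3 depletion and 31.8 in the control. MCMBP, a protein that binds and helps to stabilise or unload MCM complexes, went the other way. It had 94.6 FPKM in the co-depletion, 104.0 in the FoxO3 depletion and 83.8 in the control. Its level was 113% of control (107% to 119%) after co-depletion and 124% (117% to 131%) after FoxO3 depletion.

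Genes for origin firing included the lowest FPKM level of the set. GINS3 (ENSG00000181938), a subunit of the GINS tetramer, had 6.08 FPKM in the co-depletion, 9.66 in the FoxO3 depletion and 13.2 in the control. The 3 libraries were spread in that order, on 89, 124 and 228 recovered reads. Its level was 46.2% of control (35.7% to 59.2%) after co-depletion and 73.3% (58.4% to 91.6%) after FoxO3 depletion. With 48.6% GC its log2 ratio for the co-depletion over the control was -1.001, or -1.02 after subtraction of the GC trend. GINS4 had 26.7 FPKM in the co-depletion, 28.5 in the FoxO3 depletion and 41.8 in the control, at 63.9% of control (54.5% to 74.8%) after co-depletion. The other subunits of the tetramer were level: GINS1 had 49.1, 57.6 and 51.0 FPKM, and GINS2 had 21.4, 22.8 and 21.1 FPKM, in the co-depletion, the FoxO3 depletion and the control. CDC45, which joins GINS and MCM in the helicase, had 41.3 FPKM in the co-depletion, 38.6 in the FoxO3 depletion and 38.1 in the control, and its intervals included 100% of control. The GINS transcripts thus did not share a direction. GINS1 had a log2 ratio of 0.13 after co-depletion and 0.39 after FoxO3 depletion with the GC trend subtracted, in place of -0.05 and 0.17.

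The kinase subunits CDC7 and DBF4 were lower in both depleted libraries. DBF4, the regulatory subunit, had 16.4 FPKM in the co-depletion, 17.7 in the FoxO3 depletion and 25.7 in the control. CDC7, the catalytic subunit, had 18.0, 18.7 and 24.7 FPKM in the same order. Both are poor in GC, and after subtraction of the trend the log2 ratios for the co-depletion over the control were -0.25 instead of -0.62 for DBF4 and -0.06 instead of -0.44 for CDC7. For the FoxO3 depletion they were -0.02 instead of -0.52 for DBF4 and 0.07 instead of -0.38 for CDC7. TOPBP1, a scaffold needed to bring GINS to origins, had 43.8 FPKM in the co-depletion, 38.4 in the FoxO3 depletion and 64.8 in the control. It was one of the genes called lower after FoxO3 depletion, with a log2 ratio of -0.74, or -0.43 after subtraction of the trend, and its log2 ratio after co-depletion was -0.56, or -0.29. RECQL4, a helicase of the RecQ family with a role in initiation, had 42.8 FPKM in the co-depletion, 41.4 in the FoxO3 depletion and 51.8 in the control. At 65.3% GC, RECQL4 was low without being poor in GC. The 9 origin firing genes had a median log2 ratio of -0.44 for the co-depletion, or -0.25 with the GC trend subtracted, and -0.38 or -0.05 for the FoxO3 depletion.

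**Figure D4:**
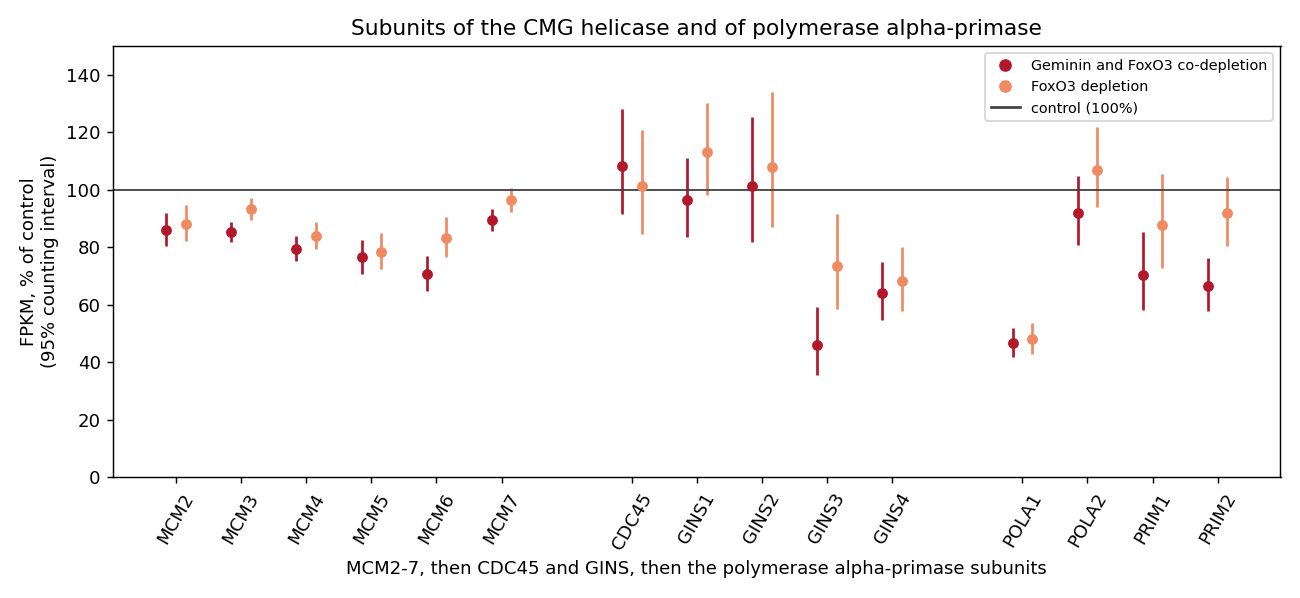
FPKM as % of the control, with 95% counting intervals, for the subunits of the CMG helicase and of polymerase alpha-primase in the co-depletion and the FoxO3 depletion. MCM2 to MCM7 lie between 70.6% and 96.3%, GINS3 reaches 46.2% while GINS1 and GINS2 lie near 100%, and POLA1 lies at 46.7% and 47.9% apart from its partner POLA2.

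By log2 ratio of (FPKM + 1), POLA1 (ENSG00000101868) was the lowest of the 48 genes in both comparisons with the control. It encodes the catalytic subunit of polymerase alpha. By the ratio of FPKM alone, GINS3 was lower after co-depletion, at 46.2% of control, and ORC3 after FoxO3 depletion, at 47.2%. POLA1 had 14.8 FPKM in the co-depletion and 15.2 in the FoxO3 depletion, against 31.7 in the control. The depleted libraries lay close together, at 46.7% of control (41.9% to 51.9%) after co-depletion and 47.9% (42.9% to 53.5%) after FoxO3 depletion. With the GC trend subtracted, its log2 ratio was -0.83 in place of -1.05 after co-depletion and -0.79 in place of -1.01 after FoxO3 depletion. The subunits that work with it differed from it. POLA2, the accessory subunit, had 20.7 FPKM in the co-depletion, 24.1 in the FoxO3 depletion and 22.5 in the control. PRIM1, the catalytic primase subunit, had 16.5, 20.5 and 23.4 FPKM in the same order. PRIM2, the large primase subunit, had 24.6 FPKM in the co-depletion, 34.0 in the FoxO3 depletion and 37.0 in the control. Both primase genes were thus lowest in the co-depletion, with PRIM2 at 66.4% of control (57.8% to 76.2%) there and 91.7% (80.5% to 104%) after FoxO3 depletion. PRIM2 has 38.8% GC, and its log2 ratios with the GC trend subtracted were -0.06 after co-depletion and 0.55 after FoxO3 depletion. Those of PRIM1 were -0.10 instead of -0.48 after co-depletion and 0.27 instead of -0.18 after FoxO3 depletion.

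Polymerases delta and epsilon gave no common direction. POLD1, the catalytic subunit of delta, had 41.0 FPKM in the co-depletion, 46.4 in the FoxO3 depletion and 50.5 in the control. POLD3, an accessory subunit, had 33.9, 36.7 and 48.5 FPKM in the same order, and was at 69.9% of control (62.5% to 78.0%) after co-depletion. POLD2, another accessory subunit, was higher in both depleted libraries, at 242.2 FPKM in the co-depletion and 232.8 in the FoxO3 depletion, against 200.03 in the control. The counting intervals of POLD2 and POLD3 lay on opposite sides of 100% of control. POLE, the catalytic subunit of epsilon, had 51.4 FPKM in the co-depletion, 54.5 in the FoxO3 depletion and 51.4 in the control. POLE2, an accessory subunit, had 25.9, 23.8 and 32.7 FPKM in the same order, and its log2 ratios of -0.32 after co-depletion and -0.44 after FoxO3 depletion became 0.09 and 0.11 with the GC trend subtracted. The 9 polymerase genes had a median of -0.32 after co-depletion, or -0.10 with the trend subtracted, and -0.12 or 0.05 after FoxO3 depletion.

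At the fork, the sliding clamp and its ligase were low while the flap nuclease was level. PCNA (ENSG00000132646), the clamp, had 104.1 FPKM in the co-depletion and 105.6 in the FoxO3 depletion, against 151.7 in the control. That is 68.7% of control (64.7% to 72.9%) after co-depletion and 69.7% (65.5% to 74.1%) after FoxO3 depletion. LIG1, which joins Okazaki fragments, had 28.1 FPKM in the co-depletion, 27.0 in the FoxO3 depletion and 40.0 in the control. Both sat just short of 1.5-fold. LIG1 has 58.5% GC, and with the GC trend subtracted its log2 ratio was -0.60 after co-depletion and -0.63 after FoxO3 depletion, past 1.5-fold. FEN1, the nuclease that trims Okazaki flaps, had 121.5 FPKM in the co-depletion, 133.2 in the FoxO3 depletion and 125.7 in the control.

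The clamp loader and the single-strand binding protein RPA also differed among their subunits. RFC1, the large subunit of the loader, had 50.6 FPKM in the co-depletion, 45.7 in the FoxO3 depletion and 77.3 in the control. It was called lower in both, with a log2 ratio of -0.60 after co-depletion, or -0.33 with the GC trend subtracted, and -0.75 after FoxO3 depletion, or -0.44. RFC2 had 71.6 FPKM in the co-depletion, 83.9 in the FoxO3 depletion and 69.3 in the control. RFC5 had 57.3, 66.5 and 59.8 FPKM in the same order. Both were highest after FoxO3 depletion, while RFC3, at 20.3, 22.2 and 28.3 FPKM, and RFC4, at 59.0, 58.0 and 70.2 FPKM in that order, were highest in the control. RFC3 had a log2 ratio of -0.17 instead of -0.46 after co-depletion and -0.02 instead of -0.34 after FoxO3 depletion with the GC trend subtracted. RPA1, the large subunit of RPA, had 119.7 FPKM in the co-depletion, 140.7 in the FoxO3 depletion and 147.0 in the control. RPA2 had 70.5, 78.8 and 85.7 FPKM, and RPA3 had 38.4, 41.0 and 45.4 FPKM, in the same order. All 3 RPA subunits were lowest in the co-depletion, at 81.4% to 84.5% of control. RPA1 and RPA3, like RFC5, FEN1 and DBF4, share between 49 and 186 exon bases with a neighbouring gene, so part of their reads is uncertain. The same holds for PRIM1 and RFC4, whose neighbours were at higher levels. PRIM1 shares 33 exon bases with NACA (210.4 to 268.6 FPKM) on the same strand. RFC4 shares 21 with EIF4A2 (308.6 to 323.7 FPKM) on the opposite strand.

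Nucleotide supply held the highest ratio of the set against the control. RRM2 (ENSG00000171848), the small subunit of ribonucleotide reductase that limits its activity over the cell cycle, had 311.4 FPKM in the co-depletion and 350.1 in the FoxO3 depletion, against 250.1 in the control. Its level was 124% of control (119% to 130%) after co-depletion and 140% (134% to 146%) after FoxO3 depletion. Its log2 ratio for the FoxO3 depletion was 0.48, or 0.59 with the GC and length trends subtracted, just past 1.5-fold. RRM1, the large subunit, had 106.2 FPKM in the co-depletion, 136.3 in the FoxO3 depletion and 136.1 in the control. The reductase subunits thus stood apart in both depleted libraries, RRM1 being level after FoxO3 depletion and at 78.0% of control (70.5% to 86.3%) after co-depletion. TK1, the salvage kinase for thymidine, had 172.4 FPKM in the co-depletion, 179.8 in the FoxO3 depletion and 194.3 in the control. TYMS, which makes thymidylate, had 91.3, 94.4 and 99.9 FPKM in the same order, and it shares 967 exon bases with ENOSF1 on the opposite strand.

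**Figure D5:**
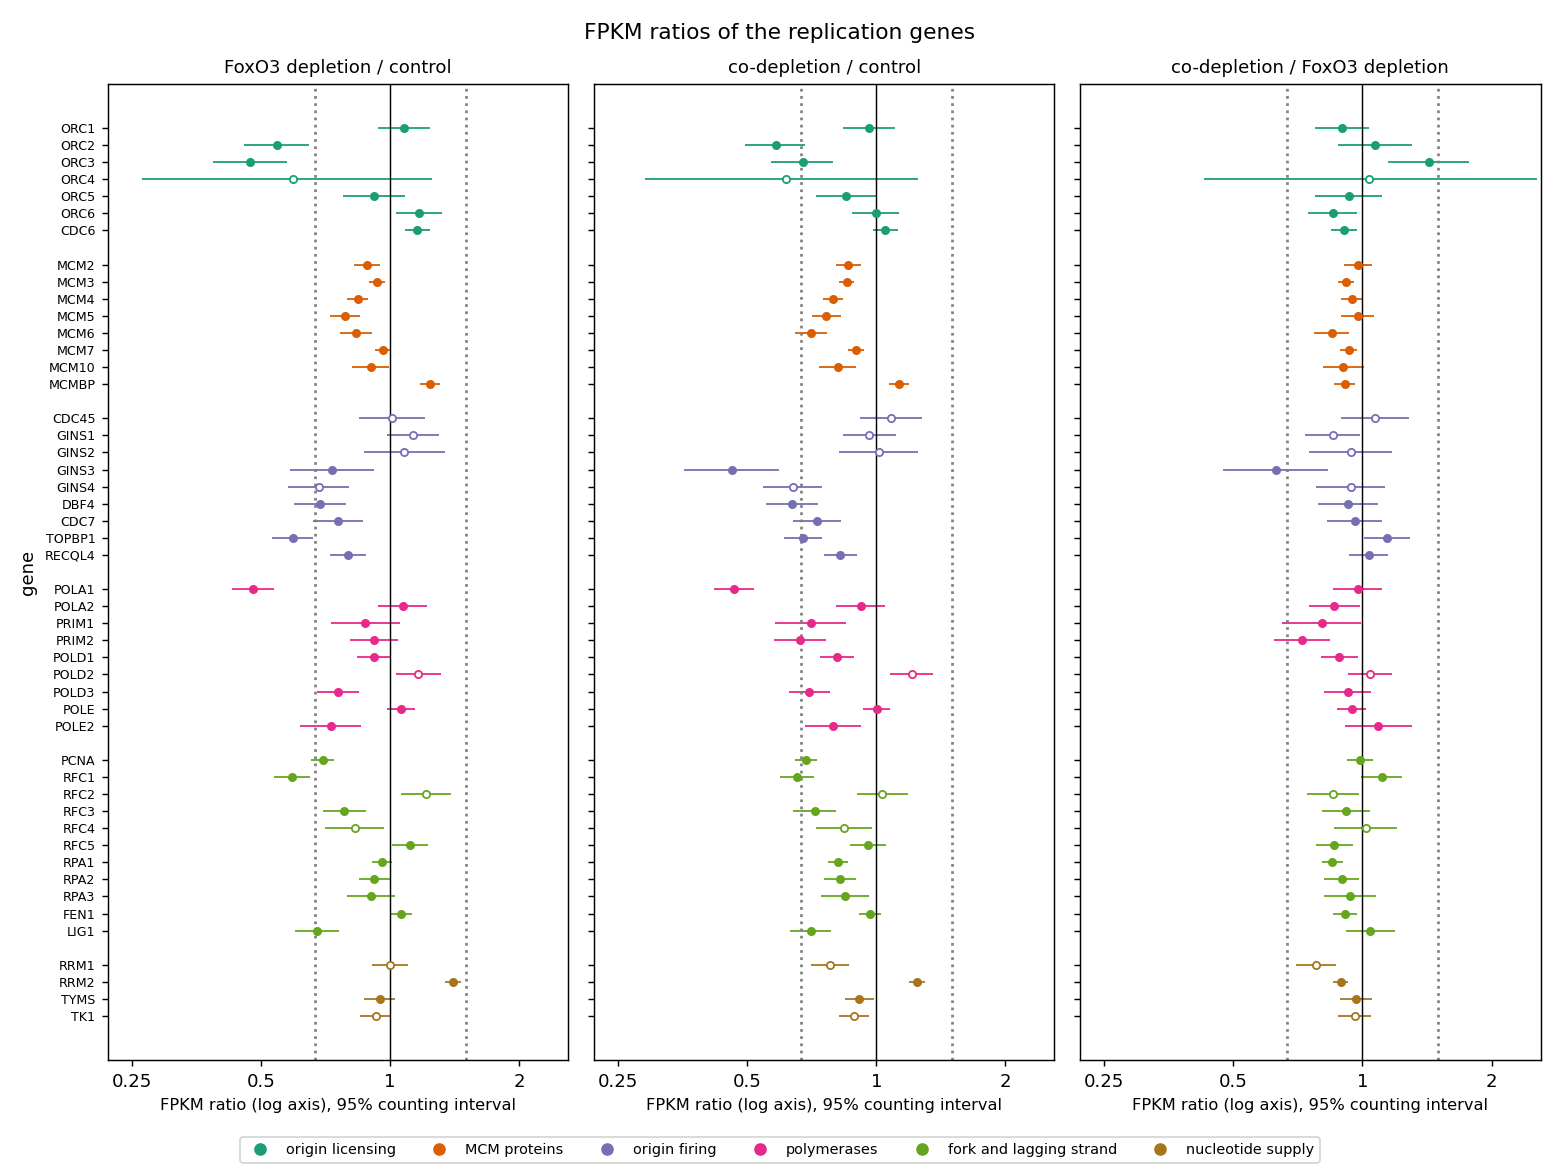
FPKM ratio (log axis) with 95% counting interval for each of the 48 genes in the 3 comparisons, coloured by functional group. Dotted lines mark 1.5-fold, and open circles mark the 10 genes whose recovered reads may be a fraction of the true reads, so that their intervals may be too wide, above all for ORC4. In the right panel GINS3 lies lowest, at a ratio of 0.63, and ORC3 highest, at 1.43.

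The co-depletion over the FoxO3 depletion compares libraries that were both depleted of FoxO3 and of which the co-depletion was also depleted of Geminin. Most replication genes were slightly lower in the co-depletion. Below 0 lay 37 of the 48 log2 ratios (77.1%), against 43.6% of all genes, and the median was -0.10, against 0.03 for all genes. GINS3 alone was lower by at least 1.5-fold (2.08% of the set, against 0.617% of all genes), and none was higher, against 1.35% of all genes. At 2-fold 0 were lower, against 0.0632% of all genes. GINS3 was at 63.0% of the FoxO3-depleted level (47.4% to 83.3%), with a log2 ratio of -0.59, or -0.55 after subtraction of the GC trend, which is short of 1.5-fold. PRIM2 followed at 72.4% (62.3% to 84.0%), with a log2 ratio of -0.45, or -0.60 after subtraction of the trend, and RRM1 at 77.9%. With the trend subtracted, PRIM2 was thus the 1 gene called lower, against 0.712% of all genes, and none was higher, against 1.07%. All 8 MCM genes were below 0, with log2 ratios of -0.04 to -0.23, and all 4 nucleotide supply genes, with -0.05 to -0.36. ORC3 lay opposite to these, at 143% (115% to 177%) of the FoxO3-depleted level. Medians by group ran from -0.09 for origin firing to -0.12 for the MCM and the fork genes, so the groups differed little.

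Other replication genes, listed separately, were called lower more often than all genes were. Of the 41 measured of 42 such genes, 12 were lower by 1.5-fold after co-depletion (29.3%, against 12.3% of all genes) and 1 was higher, with a median log2 ratio of -0.29. After FoxO3 depletion 11 were lower (26.8%, against 16.7% of all genes) and none higher. With the GC trend subtracted, 3 were lower and none higher after co-depletion, against 5.68% and 4.47% of all genes, and 5 were lower and 2 higher after FoxO3 depletion, against 8.42% and 5.8% of all genes. ESCO2, which acetylates cohesin during S phase, had 6.52 FPKM in the co-depletion, 6.31 in the FoxO3 depletion and 15.3 in the control. MMS22L, a factor for stalled forks, had 6.96, 5.54 and 16.2 FPKM, and MTBP, a partner of the initiation factor TICRR, had 7.72, 7.44 and 16.9 FPKM, in the same order. These 3 are poor in GC, and with the trend subtracted their log2 ratios after co-depletion were -0.63 instead of -1.12 for ESCO2, -0.54 instead of -1.11 for MMS22L and -0.48 instead of -1.04 for MTBP. After FoxO3 depletion they were -0.53 instead of -1.16 for ESCO2, -0.62 instead of -1.40 for MMS22L and -0.33 instead of -1.08 for MTBP. The chromatin assembly subunit CHAF1A, at 77.9, 80.9 and 78.4 FPKM, and the histone mRNA binder SLBP, at 93.2, 94.3 and 92.4 FPKM, were level. CDT1, the loading factor that Geminin binds, had 22.5 FPKM in the co-depletion, 34.7 in the FoxO3 depletion and 31.0 in the control.

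Regulators of S-phase entry lay on both sides of the control. Of 30 measured, 6 were lower and 4 higher by 1.5-fold after co-depletion, against 12.3% and 4.02% of all genes, with a median of -0.05. After FoxO3 depletion 8 were lower and 4 higher, against 16.7% and 4.0% of all genes. With the GC trend subtracted, 2 were lower and 4 higher after co-depletion, against 5.68% and 4.47% of all genes. After FoxO3 depletion 2 were then lower and 5 higher, against 8.42% and 5.8% of all genes. CDC25A, the phosphatase that activates CDK2, had 55.9 FPKM in the co-depletion and 64.8 in the FoxO3 depletion, against 30.7 in the control. The pocket proteins RBL1 and RBL2, which repress E2F targets, were low, with RBL2 at 6.49, 7.16 and 14.6 FPKM and RBL1 at 14.8, 14.6 and 27.3 FPKM in the co-depletion, the FoxO3 depletion and the control. With the GC trend subtracted, RBL2 had a log2 ratio of -0.79 instead of -1.06 after co-depletion, and RBL1 -0.54 instead of -0.84. E2F1, an activator of replication genes, was level, at 56.4, 61.3 and 55.7 FPKM, as was the cyclin CCNA2, at 63.7, 63.3 and 64.0 FPKM. Of 26 mitosis genes, 8 were lower after co-depletion (30.8%, against 12.3% of all genes) and 7 after FoxO3 depletion (26.9%, against 16.7%). None was higher, against 4.02% and 4.0% of all genes. With the GC trend subtracted, 3 were lower after co-depletion and 4 after FoxO3 depletion, against 5.68% and 8.42% of all genes. None was then higher, against 4.47% and 5.8%. The median log2 ratio was -0.16 after co-depletion and -0.02 after FoxO3 depletion. CENPF had 36.4 FPKM in the co-depletion, 30.01 in the FoxO3 depletion and 137.9 in the control, and TOP2A had 213.3, 175.4 and 477.7 FPKM, in the same order. With the GC trend subtracted, the log2 ratio after co-depletion was -1.48 instead of -1.89 for CENPF and -0.65 instead of -1.16 for TOP2A. CENPE had 13.6, 9.31 and 27.2 FPKM, with a log2 ratio after co-depletion of -0.36 instead of -0.95, while CENPA, at 32.2, 39.3 and 32.1 FPKM, and AURKA, at 125.6, 157.0 and 127.2 FPKM, were level between the co-depletion and the control.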

How the data were processed

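Per the labels' protocols, 3 ug of Trizol-extracted RNA per library entered a TruSeq preparation. TopHat2 2.0.9 is named in the submitters' processing notes, and the sources used here name no counter, FPKM tool, genome build, annotation or strand choice. The deposited files hold FPKM per Ensembl gene, 1 file per library, and were used as the authors made them. GENCODE 29 named 45342 of 48162 IDs and gave transcript length and GC content.

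Log2 ratios of (FPKM + 1) understate differences of low genes. A gene was called by size, at 1.5-fold. Genes with a mean of at least 1 FPKM were analysed, 12649 in all. Every member and 5 genes of each further list were named by a written rule, and CDT1 was added after its values were seen. Members and lists were chosen with earlier results of these data known.

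Depth was recovered from the FPKM steps. Whole reads up to 60000 were found for 20587 of the 20591 genes detected in 2 or 3 libraries, but for 13.0% of 2000 genes with randomised values, and totals came from genes with a single transcript. The recovered reads of 10 members may be a fraction of the true ones. Each 95% interval of a ratio is the exact Clopper-Pearson interval from a gene's recovered reads in 2 libraries, and covers counting error only. The GC trend is the running median log2 ratio over 50 GC bins. Scripts ran in Python 3.11.15 and were tested on simulated data.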

Additional observations from a re-analysis of the deposited data

How the results depend on the processing

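The median log2 ratios of the 48 genes kept their sign under each alternative and moved by less than the genes' median counting interval. That interval describes single genes, not a median of 48. With GC the median became -0.05 instead of -0.13 after FoxO3 depletion and -0.18 instead of -0.28 after co-depletion. Tried in turn were a pseudocount of 0.5 or 0.1, a stricter filter of 5 FPKM or none, libraries rescaled by their median ratio or to TPM, subtraction of the GC trend alone or of the GC and length trends, and protein-coding genes alone, and for counts a call at 2-fold. After FoxO3 depletion the 6 genes called lower became 3 with GC, 3 with GC and length and 1 at 2-fold. With TPM they became 7, LIG1 being gained. The 0 higher became 1, RRM2, with GC and length. After co-depletion the 7 called lower became 4 with median rescaling, 4 with GC, 3 with GC and length and 2 at 2-fold. They rose to 9 with TPM, PRIM2 and TOPBP1 being gained, and to 8 with a pseudocount of 0.1, PRIM2 being gained. Rescaling shifts all genes alike. For the co-depletion over the control, their median was -0.09 with TPM and -0.0007 with median rescaling, against -0.06 without. The shares of all genes called with TPM, median rescaling, other pseudocounts or GC and length were not counted. These changes in number are therefore not results about the 48 genes. For the co-depletion over the FoxO3 depletion the 1 gene called lower became 0 at 2-fold, and with GC it was PRIM2 in place of GINS3. With GC, ORC2, ORC3, ORC4, RFC1 and TOPBP1 lost the call after FoxO3 depletion, and GINS4 and LIG1 gained it, while POLA1 kept it. ORC4 reversed, to a log2 ratio of 0.0379 with GC and 0.0681 with GC and length. Values not called lower also changed sign with GC after FoxO3 depletion, to 0.07 for CDC7, 0.11 for POLE2, 0.27 for PRIM1 and 0.55 for PRIM2. ORC5 changed to 0.41, RPA3 to 0.007 and CDC45 to -0.05. The licensing, polymerase and nucleotide supply medians changed sign too, to 0.04, 0.05 and 0.02, and the origin firing median became -0.05. After co-depletion the sign changed with GC to 0.13 for GINS1, 0.17 for ORC5, 0.10 for ORC6 and 0.09 for POLE2. It changed to -0.02 for GINS2, -0.06 for POLE and -0.02 for RFC2. Of 1458 values of single genes and groups under an alternative, 88 moved past their counting interval, 79 of them under the GC settings. The calls at 2-fold are fewer because that size is larger. The other movements have causes that were not tested. No paired analysis was possible because each group holds 1 library, and no library could be left out. Depth limits genes with few reads most, such as GINS3, and ORC4, whose recovered reads may be a fraction of the true ones, has the widest interval.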
